A study of Mus musculus with 2 samples.

Results

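The neutrophil granule and S100 genes are 10 mouse genes, S100a8, S100a9, Ngp, Ltf, Camp, Lcn2, Elane, Mpo, Retnlg and Stfa1, out of 27998 genes counted in single lung cells. They were chosen by name, and all 10 were present in both libraries. In these lungs 8 of them were counted in neutrophils, and Elane and Mpo were not counted there at all. S100a8 and S100a9 made up 12% of all the RNA molecules counted in neutrophils in room air and 10.5% in hyperoxia. Within neutrophils, the UMIs of Ngp, Camp and Ltf lay almost entirely in a small group of cells in both libraries, a group set by a limit on these genes. Lcn2 had most of its molecules outside neutrophils, in alveolar type 2 (AT2) cells, where it was 1.66-fold higher in hyperoxia (95% interval 1.60 to 1.73).

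The data came from whole lungs of wild-type C57BL/6 mice (C57BL/6J in the study's methods) that were 2 weeks old. From day 0 to day 14, pups breathed either room air (21% oxygen) or 80% oxygen, a model of bronchopulmonary dysplasia in which the control pups received no other treatment. Lungs of 8 mice were pooled into 1 droplet library for each group, with no sorting of cells, so that neither group had a replicate. No test between the groups was therefore possible, and every interval given here is a 95% interval that covers counting error only and not the spread between mice. Each molecule carries a unique molecular identifier (UMI), and levels are UMIs summed over the cells of a type and scaled to a common total (CPM, where 10000 CPM is 1% of all UMIs of those cells). Where a pair of values has no group beside it, room air comes first.

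Neutrophils are short-lived phagocytes that develop in the bone marrow and enter tissues from the blood. While they mature they fill their granules in order: azurophil granules at the promyelocyte stage, with myeloperoxidase (Mpo) and neutrophil elastase (Elane), then specific granules, with lactoferrin (Ltf), cathelicidin (Camp), neutrophilic granule protein (Ngp) and lipocalin 2 (Lcn2), then gelatinase granules. Transcription of each granule protein largely ends when its stage has passed, whereas S100a8 and S100a9, which form the cytosolic heterodimer calprotectin, stay highly transcribed in mature cells. C/EBP factors and PU.1 are the transcription factors best known for driving these genes.

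All 10 members matched 1 gene each of the GRCm38 annotation, the build of the counts. S100a8 (chromosome 3, 90668978 to 90670035, plus strand) and S100a9 (chromosome 3, 90692632 to 90695721, minus strand) lie 22.6 kb apart. Camp (chromosome 9, 109847379 to 109849617, minus strand), Ngp (chromosome 9, 110419747 to 110423012, plus strand) and Ltf (chromosome 9, 111019271 to 111042767, plus strand) share chromosome 9. Retnlg (chromosome 16, 48872621 to 48874496) and Stfa1 (chromosome 16, 36276951 to 36285373) are both on the plus strand. Lcn2 lies on the minus strand of chromosome 2 (32384633 to 32388252), Elane on the plus strand of chromosome 10 (79886247 to 79888215) and Mpo on the plus strand of chromosome 11 (87793581 to 87804413).

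The sequences upstream of the specific granule genes and the S100 pair are shown because their transcripts lay in the same few cells or in nearly every neutrophil, and those of Elane and Mpo because these were at 0 in all of them. The sequences are from RefSeq (GRCm38.p6) and run 5′ to 3′ on the strand of the gene. For Ngp, Ltf, Camp and S100a8 bases inside the annotated gene are left out, whereas the stretch of Lcn2 lies upstream of the RefSeq start but inside the annotated gene. The bases left out for Ngp hold a further C/EBP match, 11 to 4 bases upstream of the RefSeq start. Capitals mark a match to a C/EBP motif, TTGCNNAA, or a PU.1 motif, GAGGAAGT, each searched on both strands in the 250 bases upstream of the RefSeq start.
Ngp (chr9:110419558-110419746): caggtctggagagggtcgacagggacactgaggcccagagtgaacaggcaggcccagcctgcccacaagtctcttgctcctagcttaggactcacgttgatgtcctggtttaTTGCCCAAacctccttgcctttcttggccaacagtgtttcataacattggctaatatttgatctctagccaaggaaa
Ltf (chr9:111019042-111019270): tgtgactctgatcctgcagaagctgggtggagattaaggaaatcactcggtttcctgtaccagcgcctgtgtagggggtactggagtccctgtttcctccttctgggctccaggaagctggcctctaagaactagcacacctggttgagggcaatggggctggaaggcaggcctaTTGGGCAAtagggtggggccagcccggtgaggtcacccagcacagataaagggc
Camp (chr9:109849618-109849706): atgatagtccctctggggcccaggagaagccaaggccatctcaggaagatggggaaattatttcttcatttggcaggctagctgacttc
Lcn2 (chr2:32387937-32387966): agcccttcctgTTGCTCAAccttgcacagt
S100a9 (chr3:90695722-90695971): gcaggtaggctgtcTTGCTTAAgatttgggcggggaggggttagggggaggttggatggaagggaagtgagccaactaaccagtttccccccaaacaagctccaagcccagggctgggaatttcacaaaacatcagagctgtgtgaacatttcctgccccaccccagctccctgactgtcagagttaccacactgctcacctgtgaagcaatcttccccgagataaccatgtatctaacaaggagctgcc
S100a8 (chr3:90668821-90668977): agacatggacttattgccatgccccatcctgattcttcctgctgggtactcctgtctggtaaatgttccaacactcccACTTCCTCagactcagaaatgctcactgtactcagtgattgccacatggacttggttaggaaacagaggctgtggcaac
Elane (chr10:79886216-79886245): cgtgtcccaggGAGGAAGTagggctgtggc
Mpo (chr11:87793549-87793578): gtggagagagaGAGGAAGTtgcctttgtcc

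A C/EBP match stood upstream of 6 of the 10 members (Lcn2, Ltf, Ngp, Retnlg, S100a9 and Stfa1), beside 9.56% of 32851 promoters of the same length. A PU.1 match stood upstream of 3 (Elane, Mpo and S100a8), beside 2.44% of those promoters. Camp had neither match in this window. A match describes these windows and locates no binding site.

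Neutrophils were the cells of the clusters raised for markers that hold no member, and the members and related lists were kept out of the clustering. After filters and doublet removal, 108 of 3680 cells in room air (2.93%, 2.41 to 3.53) and 485 of 10472 in hyperoxia (4.63%, 4.24 to 5.05) were neutrophil-like cells, called neutrophils here. That difference turned from 1.70 to −2.27 percentage points when neutrophils were taken cell by cell by at least 3 markers. The clusters took their name from these markers, which is why their levels describe the cells and test nothing. Of the 15 markers detected, Csf3r, the receptor of granulocyte colony-stimulating factor, was counted in 96.3% and 89.9% of them, Ly6g, a surface marker of mouse neutrophils, in 12% and 18.8%, and Mrgpra2a, the lowest, in 9.26% and 5.77%. At least 3 markers were counted in 108 of 108 and 483 of 485 of these cells, and in 277 of 3572 and 375 of 9987 other cells. Sequencing gave 39593888 UMIs over 4234 barcodes in room air and 111934936 over 13223 in hyperoxia, and 17 barcode sequences occurred in both libraries, none of them in a neutrophil. Neutrophils held a median of 3177 UMIs in room air against 2287 in hyperoxia, the lowest among the 13 cell types compared. They also carried free RNA of other cells: Sftpc, a surfactant gene of AT2 cells, lay at 470 CPM in neutrophils in room air and at 1046 CPM in hyperoxia.

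Between the libraries, the members did not move in one direction in neutrophils. All 10 together lay at 159887 CPM in room air against 148956 CPM in hyperoxia, a ratio of 0.932 (0.923 to 0.940). Of the 8 members with a mean of at least 10 CPM, 5 were higher in hyperoxia and 3 lower, and 0 were past 2-fold either way. Among all 5992 genes tested by that rule of size, 4.37% were at least 2-fold higher in hyperoxia and 8.64% at least 2-fold lower. The median log2 ratio was 0.16 over the 8 members and −0.07 over all genes tested.

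**Figure D1:**
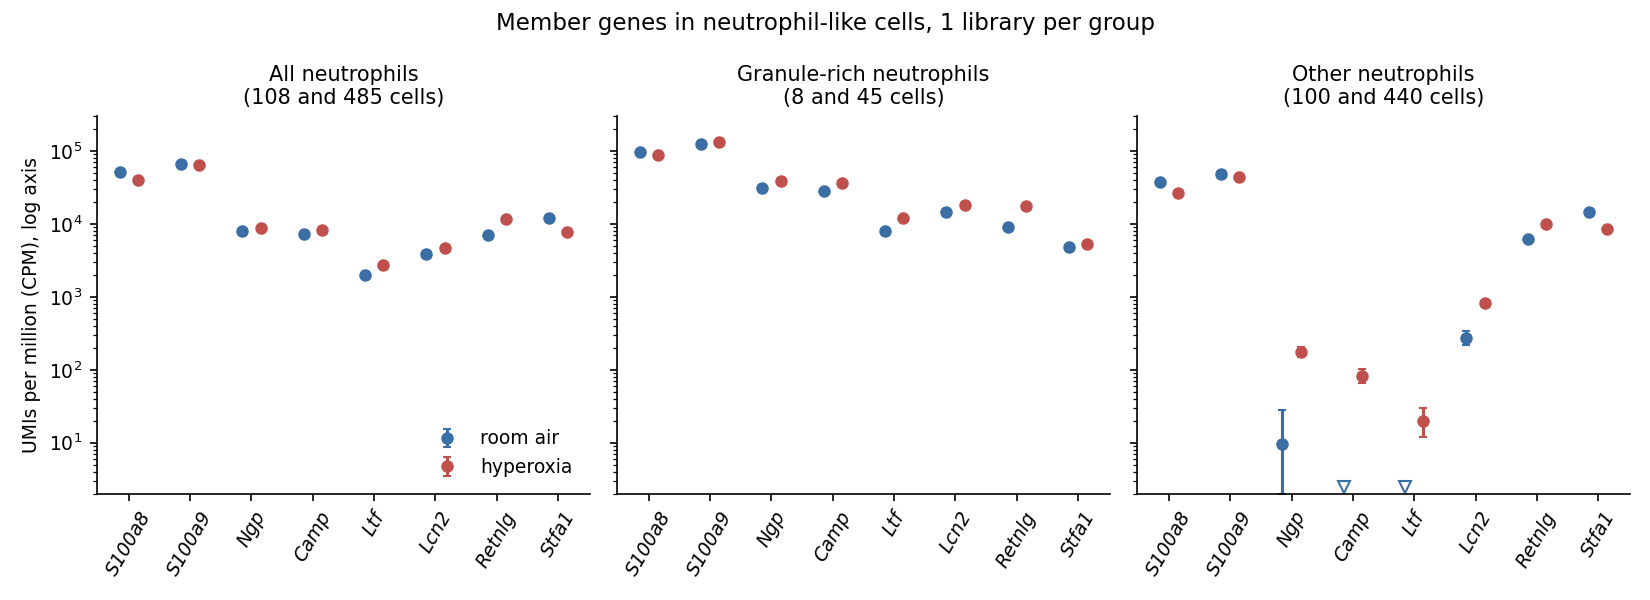
Summed levels (CPM, log axis) of 8 members in all neutrophils, in granule-rich neutrophils (at least 100 Ngp, Camp and Ltf UMIs per 10000) and in the other neutrophils, with room air in blue, hyperoxia in red, bars for 95% Poisson intervals and open triangles for a count of 0. Ngp, Camp and Ltf stand at 7953 CPM or more in the granule-rich cells of both libraries and at most at 175 CPM in the other neutrophils.

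The calprotectin genes were counted in a larger share of neutrophils than any other member. S100a8 had a median of 92.5 UMIs per cell in room air (lowest 0, highest 2043) and 51 in hyperoxia (lowest 0, highest 1517). It was counted in 98.1% and 96.5% of neutrophils, and its summed level was 52323 CPM in room air against 40524 CPM in hyperoxia, a ratio of 0.774 (0.762 to 0.787). The ranges of single cells overlapped almost wholly. Both the summed level and the median UMIs per cell were lower in hyperoxia, but that median was not scaled to depth. Neutrophils held a median of 3177 UMIs in all in room air and 2287 in hyperoxia.

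S100a9 had a median of 100 UMIs per cell in room air (lowest 0, highest 2693) and 85 in hyperoxia (lowest 0, highest 2401). Its summed level was 67438 CPM in room air against 64590 CPM in hyperoxia, a ratio of 0.958 (0.945 to 0.971). Without the cell that held most S100a9 in each library, the ratio was 1.01 (0.992 to 1.02), so that the direction rested on single cells, and it also turned (log2 ratio 0.01) when all ratios were centred on the median gene. The direction turned as well with each library clustered on its own and with neutrophils taken cell by cell. S100a8 kept a ratio of 0.798 (0.785 to 0.811) without its top cell in each library.

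The 2 S100 genes therefore stood in slightly different proportions. S100a8 took 43.7% (43.3 to 44.1) of the pair's UMIs in neutrophils in room air and 38.6% (38.3 to 38.8) in hyperoxia. These intervals did not overlap, but they treat UMIs of 1 cell as independent and say nothing of the spread between mice. In B cells, taken as the reference for free RNA, S100a8 was counted in 9.29% and 6.97% of cells and S100a9 in 11.4% and 10.2%, at a median depth of 4524.5 and 2913 UMIs.

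Ngp, Camp and Ltf, all proteins of the specific granules, had a very different pattern. The median neutrophil held 0 UMIs of each in both libraries. Ngp was counted in 10.2% of neutrophils in room air and 16.3% in hyperoxia, Camp in 7.41% and 12.6%, and Ltf in 7.41% and 11.8%. In B cells the shares were at most 2.14% for each of the 3 genes. In neutrophils thinned to 1000 UMIs per cell, which leaves out those with fewer, Ngp was counted in 8.41% and 13.8%.

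The cells that held these transcripts held many. With a limit of 100 Ngp, Camp and Ltf UMIs per 10000, 8 of 108 neutrophils in room air (7.41%, 3.25 to 14.1) and 45 of 485 in hyperoxia (9.28%, 6.85 to 12.2) were granule-rich, and their intervals overlapped. These cells held 99.96% of the Ngp, Camp and Ltf UMIs of neutrophils in room air and 98.9% in hyperoxia. The limit was set after the values had been seen and marks a range, not a cell type. In room air 1 neutrophil lay near it (20 to 150 per 10000) and 97 were at 0, while in hyperoxia 12 lay near it and 396 were at 0.

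**Figure D2:**
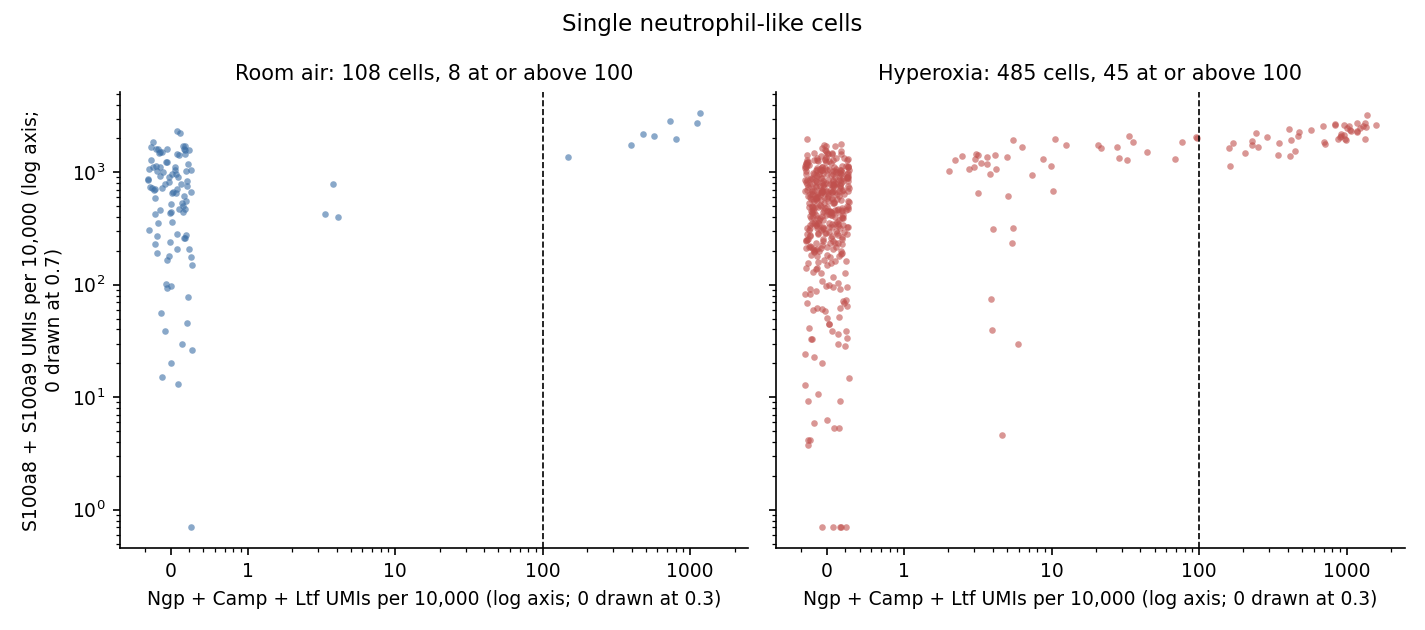
Each point is 1 neutrophil, with Ngp, Camp and Ltf UMIs per 10000 on the x axis (log axis, cells at 0 drawn at 0.3 with jitter) and S100a8 and S100a9 UMIs per 10000 on the y axis (log axis, cells at 0 drawn at the lower edge), room air left and hyperoxia right. Most cells (97 of 108 and 396 of 485) sit at 0, and 8 and 45 lie right of the dashed line at 100 with high S100 levels.

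Single cells show how much 1 barcode could hold. The granule-rich neutrophils of room air held between 258 and 1705 UMIs of the 3 genes (median 617.5), and those of hyperoxia between 23 and 1580 (median 499). In room air the top cell held 25.4% of all Ngp UMIs of neutrophils, 24.3% of Camp and 21.4% of Ltf, and in hyperoxia 5.12%, 7.52% and 6.45%. With 8 such cells in room air, the sums of these genes followed a handful of cells.

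The summed levels were nevertheless similar in the libraries. Ngp lay at 7938 CPM in room air against 8690 CPM in hyperoxia, a ratio of 1.09 (1.05 to 1.14), or 1.35 without the top cell of each library. Camp lay at 7225 and 8290 CPM, a ratio of 1.15 (1.10 to 1.19), or 1.34 without the top cells. Ltf lay at 2005 and 2726 CPM, a ratio of 1.36 (1.26 to 1.47), or 1.56 without the top cells. All 3 were higher in hyperoxia by less than 2-fold.

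Doublet removal touched these genes unequally. Among hyperoxia barcodes of any type, 56 passed the limit of 100 per 10000, and 11 of them were removed as likely doublets, with 5381 of the 17028 Ngp UMIs of that library in removed barcodes. In room air 9 passed it and 0 were removed. When doublets were ranked over a wider neighbourhood, 43 of the 56 and 3 of the 9 were removed, and Ngp, Camp, Ltf and Lcn2 were then more than 2-fold lower in hyperoxia, with log2 ratios of −3.15, −3.25, −2.78 and −1.40. The direction of these 4 genes between the libraries thus depended on the doublet ranking. That of Ngp also turned when the members and lists were included in the clustering, where room air had 9 granule-rich neutrophils instead of 8.

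Granule-rich cells differed from the other neutrophils in genes that the limit did not use. S100a8 and S100a9 together lay at 221446 CPM in them in room air and 223851 CPM in hyperoxia, against 85491 and 71056 CPM in the other neutrophils. Lcn2 lay at 14629 and 18037 CPM against 274 and 818 CPM. Mmp8, neutrophil collagenase, lay at 1400 and 2447 CPM against 284 and 512 CPM, and Cd177, a surface protein of specific granules, at 813 and 1266 CPM against 19.1 and 43.1 CPM. Cebpe, the C/EBP factor required for specific granules, lay at 255 and 437 CPM against 121 and 53.8 CPM.

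Other genes stood the other way. Il1b, a cytokine of activated neutrophils, lay at 132 CPM in granule-rich cells in room air and 235 CPM in hyperoxia, against 10352 and 10637 CPM in the other neutrophils. Csf3r lay at 56.7 and 167 CPM against 2011 and 1614 CPM. Cxcr2 lay at 236 and 389 CPM against 1275 and 1288 CPM. Not every neutrophil marker did so, since Ly6g lay at 738 and 894 CPM in granule-rich cells against 15.9 and 98.9 CPM in the others. Mmp9, gelatinase B, lay at 1352 and 2283 CPM against 1508 and 1535 CPM. The proliferation gene Mki67 was at 0 UMIs in the 8 granule-rich cells of room air and at 3 UMIs, all in 1 cell, in the 45 of hyperoxia.

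Granule-rich cells held more RNA, with a median of 14588.5 UMIs in room air (6252 in hyperoxia), against 3082.5 and 2195.5 in the other neutrophils. Endothelial transcripts moved with them in room air: 3 of the 8 cells carried at least 5 UMIs of Cdh5 and Cldn5, against 1 of 45 in hyperoxia, 0 of 100 other neutrophils in room air and 2 of 440 in hyperoxia. The part of mixed barcodes in these levels was not tested. Without those cells, the log2 ratio of all members moved from −0.10 to −0.05.

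The neutrophils that were not granule-rich held few UMIs of the specific granule genes. Ngp had 3 UMIs over 100 cells in room air and 179 over 440 cells in hyperoxia. Camp had 0 and 85 UMIs, and Ltf had 0 and 20 UMIs. With the 0 of room air set to a floor of 3 counts, the ratios were 8.70 for Camp and 2.05 for Ltf. These ratios are not lower bounds, because they leave out the counting error of the hyperoxia UMIs. For Ltf the upper end of the room air interval lay just below the lower end of the hyperoxia interval. Lcn2 lay at 274 CPM (219 to 339) in room air against 818 CPM (764 to 876) in hyperoxia, a ratio of 2.99 (2.39 to 3.77). In these cells 3 of 7 members tested (Lcn2, Camp and Ngp) were past 2-fold higher and 0 lower, beside 7.5% of 5784 genes higher and 7.47% lower. Because the limit was set on Ngp, Camp and Ltf themselves, their values here are a description of what the limit left and support no difference between the libraries.

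These UMIs came from few cells, some of them just under the limit. In hyperoxia 5 of the 440 cells held at least 10 Ngp UMIs and the top cell held 20.1% of them, while 32 neutrophils of that library lay between 0 and 20 per 10000 against 3 in room air. Lcn2 rested on more cells: 25 of the 440 held at least 10 UMIs, its top cell held 4.07%, and it was counted in 38.9% of these cells in hyperoxia and 25% in room air. The background of free Lcn2 RNA also stood higher in hyperoxia, at 13.5 CPM in B cells against 2.20 CPM in room air, far below both neutrophil levels. The limit took out most Lcn2 as well. Granule-rich cells held 1547 of its 1633 UMIs in room air neutrophils, and 5285 of 6121 in those of hyperoxia. The Lcn2 ratio of the cells left under the limit therefore depends on that limit too. A difference in Lcn2 apart from the limit was not tested.

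In all neutrophils Lcn2, which binds bacterial siderophores, had a median of 0 UMIs per cell in both libraries (highest 473 in room air and 360 in hyperoxia). Its level was 3893 CPM in room air against 4656 CPM in hyperoxia, a ratio of 1.20 (1.13 to 1.26). The top cell in room air held 29.0% of its neutrophil UMIs, and without the top cell of each library the ratio was 1.55 (1.45 to 1.65).

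Mpo and Elane, the azurophil enzymes, were at 0 UMIs in all 108 neutrophils of room air and all 485 of hyperoxia, granule-rich cells included. With a floor of 3 counts this allows up to 7.15 CPM in room air against 2.28 CPM in hyperoxia, or a UMI in up to 2.78% and 0.619% of the cells. Over all barcodes Elane had 2 and 17 UMIs and Mpo 16 and 256. In hyperoxia 229 of the 256 Mpo UMIs lay in 4 barcodes, all removed as likely doublets.

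Of those 4 barcodes, 3 carried Mpo beside mast cell and basophil proteases: 76, 27 and 121 Mpo UMIs beside 31, 197 and 341 UMIs of Mcpt8 and 19, 42 and 79 UMIs of Cpa3, a mast cell carboxypeptidase. They also held 77, 60 and 85 UMIs of Ctsg, the protease cathepsin G, and 0 UMIs of Ngp, Camp and Elane. The fourth held 5 Mpo UMIs beside 53 UMIs of Prtn3, the azurophil protease 3, and 55 of Ly6c2, a monocyte marker. Mpo and Elane transcripts of these lungs were therefore counted outside the neutrophil clusters.

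Retnlg, a resistin-like protein secreted by neutrophils, had the largest ratio among the members in neutrophils. It had a median of 4.5 UMIs per cell in room air (lowest 0, highest 479) and 5 in hyperoxia (lowest 0, highest 320), and it was counted in 74.1% and 73.4% of them. Its level was 6982 CPM in room air against 11661 CPM in hyperoxia, a ratio of 1.67 (1.61 to 1.74), or 1.88 (1.80 to 1.97) without the top cells. Scaled to the depth of each cell, the median neutrophil held 14.9 Retnlg UMIs per 10000 in room air against 23.1 in hyperoxia, so that the median cell and the sum stood the same way.

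Granule-rich cells carried part of that difference. Retnlg reached at least 100 UMIs per 10000 in 3 of 8 granule-rich neutrophils of room air and 30 of 45 of hyperoxia, and in 17 of 100 and 95 of 440 of the others. In granule-rich cells it lay at 8993 and 17446 CPM, and in the others at 6304 and 10002 CPM, a ratio of 1.59 (1.51 to 1.67) in the latter.

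Stfa1, a stefin A that inhibits cysteine proteases, had the lowest ratio. It had a median of 27.5 UMIs per cell in room air (lowest 0, highest 220) and 14 in hyperoxia (lowest 0, highest 223). Its level was 12083 CPM in room air against 7819 CPM in hyperoxia, a ratio of 0.647 (0.626 to 0.669), or 0.655 (0.633 to 0.678) without the top cells. At least 100 UMIs per 10000 were found in 52 of 108 neutrophils in room air and 140 of 485 in hyperoxia.

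The stefin A genes are similar copies, and how the counting treated reads shared among them was not tested, so the value of Stfa1 is uncertain. The neighbouring copies BC100530 and Gm5483 lay at 10448 and 7273 CPM in neutrophils in room air and at 9362 and 6714 CPM in hyperoxia, with log2 ratios of −0.16 and −0.12 against −0.63 for Stfa1. In contrast to the specific granule genes, Stfa1 was lower in granule-rich cells (4813 and 5392 CPM) than in the other neutrophils (14533 and 8515 CPM).

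Where the UMIs lay separated Lcn2 from the rest. Neutrophils held 87.6% of the S100a8 UMIs of all cells kept in room air and 95.5% in hyperoxia, 90.5% and 97.5% of S100a9, 95.3% and 97.1% of Retnlg, and 95.2% and 96.9% of Stfa1. For Ngp the shares were 81.6% and 98.2%, for Camp 86.3% and 98.5%, and for Ltf 73.3% and 96.2%. The lower shares in room air included 1 granule-rich barcode in the basophil or mast cell cluster, which held 703 Ngp, 431 Camp and 185 Ltf UMIs. For Lcn2 neutrophils held 31.0% and 19.1%, and AT2 cells 54.3% and 69.0%.

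**Figure D3:**
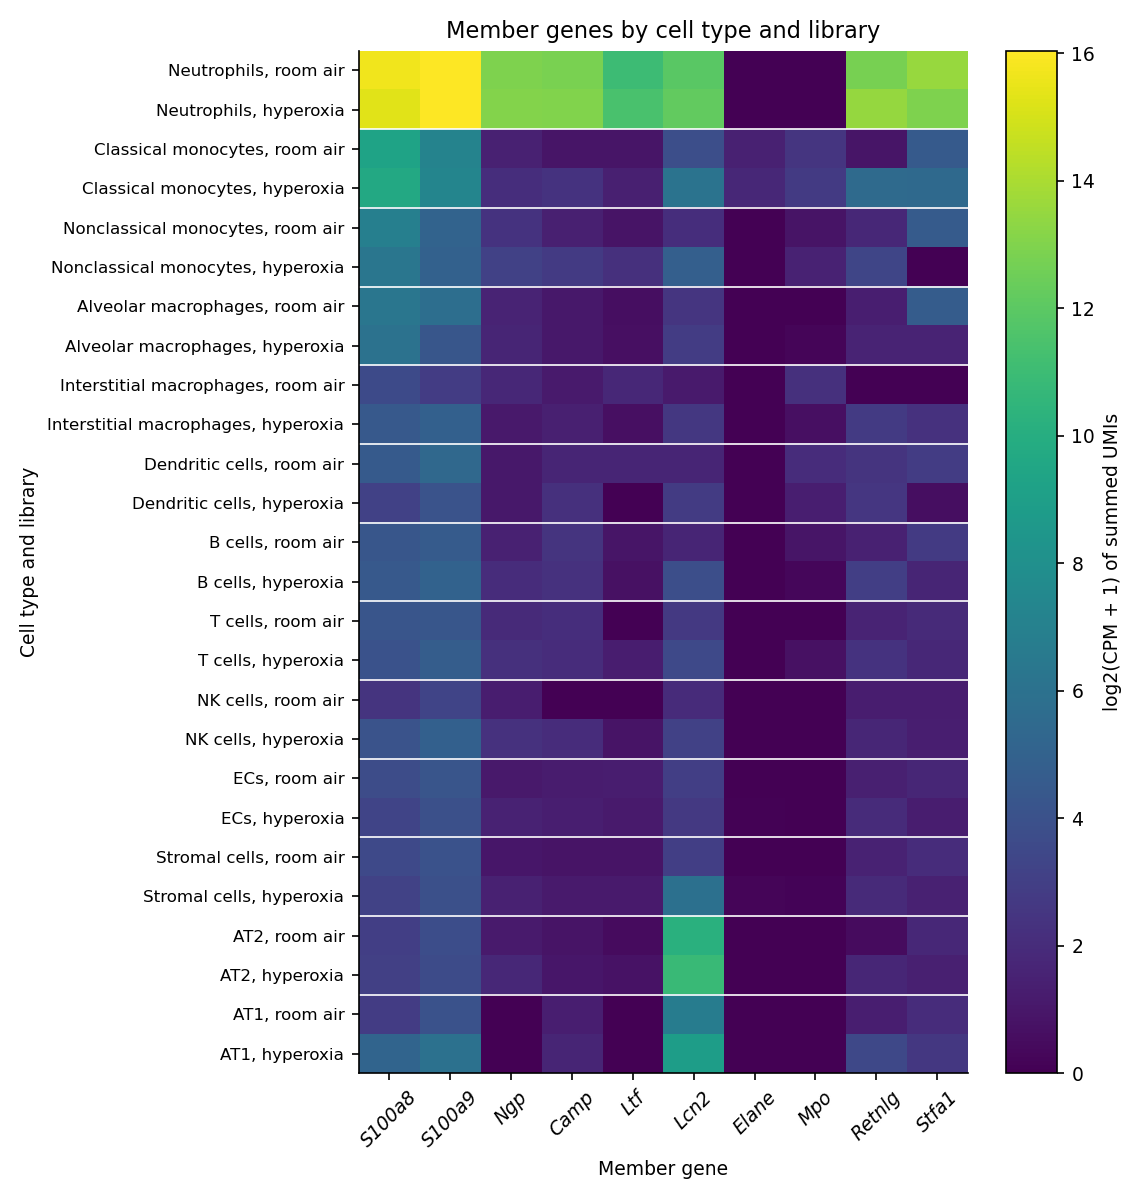
Levels of the 10 members as log2(CPM + 1) in 13 cell types of each library, with room air above hyperoxia within each type. S100a8, S100a9, Ngp, Camp, Ltf, Retnlg and Stfa1 are bright in neutrophils, Lcn2 also in AT2 and AT1 cells, S100a8 is raised in classical monocytes, and Elane and Mpo are dark in neutrophils.

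Among the 12 other cell types compared, the S100 pair was highest in classical monocytes, at 777 CPM and 975 CPM. In the 7 types that are not myeloid (B, T and NK cells, ECs, stromal, AT1 and AT2 cells), S100a8 and S100a9 together lay between 13.2 and 42.7 CPM in room air and between 18.8 and 96.9 CPM in hyperoxia, at most 0.0922% of the neutrophil level. B cells, the reference for free RNA, lay at 42.7 CPM (34.6 to 52.1) and 53.5 CPM (47.0 to 60.6), a ratio of 1.25 (0.986 to 1.60). Without the top cell of each library the ratio was 1.29 (1.01 to 1.66), and its log2 value went from 0.32 to 2.48 without doublet removal and to −0.61 with the wide doublet neighbourhood, so that no direction is read from it.

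The make-up of the S100 UMIs differed among the myeloid types. In 9 of the 12 other types the interval of the S100a8 part overlapped that of neutrophils (43.7% in room air and 38.6% in hyperoxia) in each library. In B cells the part was 44.3% (34.2 to 54.8) and 40.7% (34.5 to 47.1), and in ECs 40.0% (33.7 to 46.6) and 38.4% (33.8 to 43.1). The same 3 types stood above it in both libraries: classical monocytes at 81.4% (78.7 to 84.0) and 84.2% (82.0 to 86.3), nonclassical monocytes at 78.5% (71.9 to 84.2) and 71.9% (58.5 to 83.0), and alveolar macrophages at 59.1% (52.9 to 65.1) and 77.6% (73.5 to 81.3). Other parts of the members' UMIs departed from neutrophils in more types: in hyperoxia, of the UMIs of all 10 members, the part of Ngp, Camp and Ltf was lower in 7 of 12 types, that of Stfa1 lower in 7, that of Retnlg lower in 5 and that of Lcn2 higher in 12. In B cells of hyperoxia, Ngp, Camp and Ltf made up 9.09% (6.41 to 12.4) and Stfa1 2.60% (1.25 to 4.72), both below neutrophils. These parts share 1 total that includes Lcn2, so a high Lcn2 part lowers every other part. In hyperoxia Lcn2 was 16.1% of that total in B cells against 3.13% in neutrophils. It was 98.6% in AT2, 81.0% in AT1 and 65.3% in stromal cells. The lower parts are therefore not separate from the higher Lcn2 part.

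**Figure D4:**
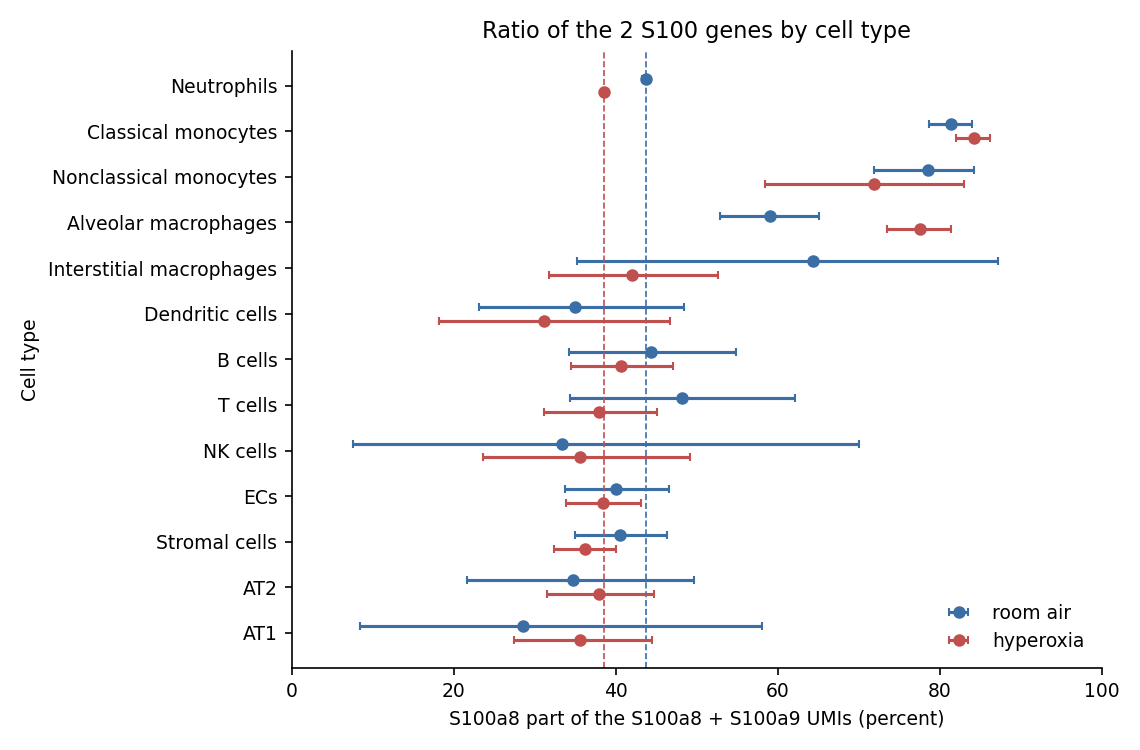
Part of the S100a8 and S100a9 UMIs that were S100a8 (percent) in each of 13 cell types, room air in blue and hyperoxia in red, with bars for 95% Clopper-Pearson intervals and dashed lines at the neutrophil values. Classical and nonclassical monocytes and alveolar macrophages lie right of the lines in both libraries, and the other 9 types overlap them.

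After neutrophils, classical monocytes had the highest S100a8 level of the 13 types. It was 633 CPM in room air against 822 CPM in hyperoxia, a ratio of 1.30 (1.18 to 1.43), but 1 barcode held 363 of the 710 UMIs in room air. Without the top cell of each library the levels were 312 and 735 CPM, a ratio of 2.36 (2.08 to 2.68). The transcripts lay in few cells, since 9 of 110 cells in room air and 24 of 158 in hyperoxia held at least 10 UMIs and together held 91.4% and 84.5% of them. S100a9 was at 0 UMIs in 5 of those 9 cells and 14 of those 24.

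S100a9 in classical monocytes, at 144 CPM in room air against 154 CPM in hyperoxia, was mostly in 1 barcode of each library, which held 86.4% and 54.5% of it. Below classical monocytes, S100a8 lay at 121 CPM (102 to 142) in nonclassical monocytes in room air against 76.9 CPM (55.2 to 104) in hyperoxia. Alveolar macrophages followed at 78.8 CPM (66.9 to 92.2) and 64.3 CPM (57.7 to 71.3), and in hyperoxia the intervals of these neighbours overlapped. In classical monocytes the neutrophil marker Cxcr2 was at 0 and 2.44 CPM, while Csf3r was at 99.9 and 96.8 CPM, with 8 and 16 of its UMIs in the cells with at least 10 S100a8 UMIs. The part of neutrophil RNA in their S100a8 was not tested.

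In AT1 cells the S100 pair lay at 21.3 CPM in room air against 96.9 CPM in hyperoxia, a ratio of 4.56 (2.62 to 8.57). The room air level rested on 65 cells with 14 UMIs, and in hyperoxia 4 of 138 cells held 35.6% of the UMIs. The S100a8 part, 35.6% (27.5 to 44.4) in hyperoxia, overlapped that of neutrophils. The part of neutrophil RNA in this level was not tested.

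Lcn2 in AT2 cells, which make surfactant, was found in nearly every cell. It was counted in 96.3% of 163 AT2 cells in room air and 94.7% of 805 in hyperoxia, with a median of 13 UMIs per cell in both (highest 108 in room air and 478 in hyperoxia). The summed level was 1143 CPM (1102 to 1186) in room air against 1898 CPM (1873 to 1923) in hyperoxia, and the upper tail carried the difference, with a 90th percentile of 33.6 UMIs in room air against 72 in hyperoxia. Its ratio of 1.66 was not past 2-fold: 0 of 2 members tested in AT2 cells were higher by that rule, beside 1.16% of 7350 genes, or lower, beside 2.23%.

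Few S100a8 and Ngp UMIs lay in those cells. The 106 AT2 cells of room air with at least 10 Lcn2 UMIs held 13 S100a8 and 3 Ngp UMIs in all, and the 458 of hyperoxia held 50 and 15. In neutrophils with at least 10 Lcn2 UMIs the corresponding sums were 10886 and 3327 in 9 cells of room air, and 31106 and 11370 in 70 cells of hyperoxia.

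**Figure D5:**
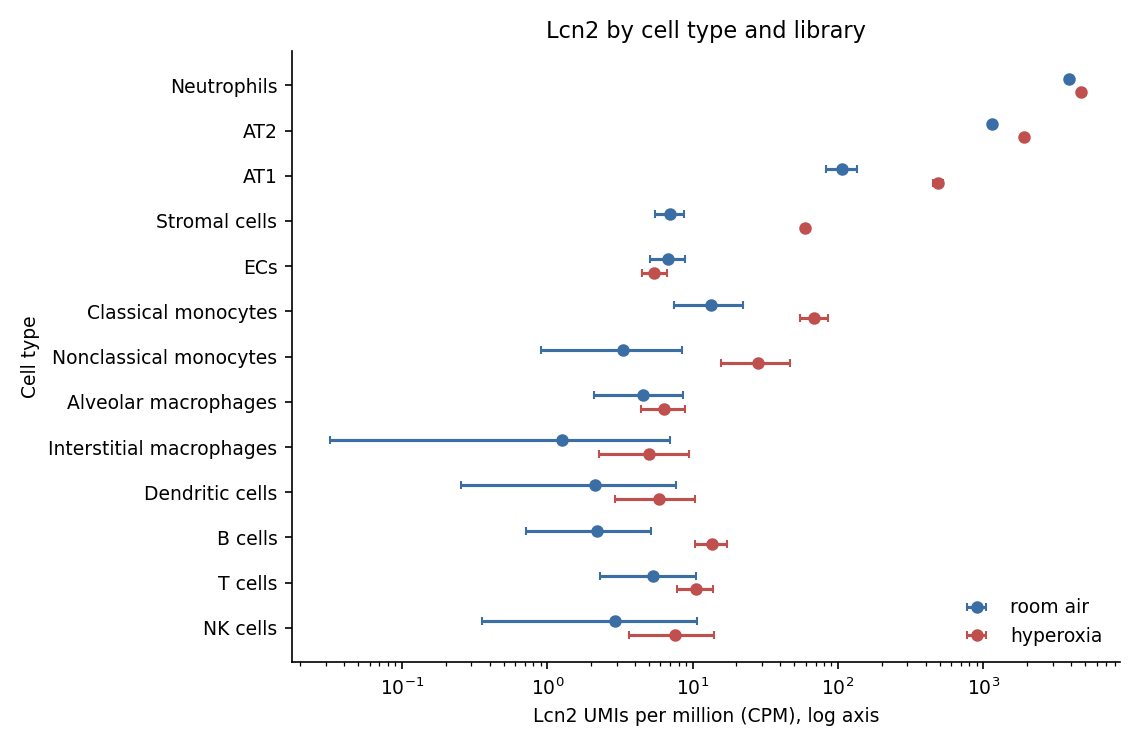
Lcn2 level (CPM, log axis) in 13 cell types, room air in blue and hyperoxia in red, with bars for 95% Poisson intervals. Neutrophils (3893 and 4656 CPM) and AT2 cells (1143 and 1898 CPM) are highest, and AT1 and stromal cells are higher in hyperoxia (490 against 106 CPM and 59.0 against 6.96 CPM).

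In AT1 cells, which line the alveoli, Lcn2 lay at 106 CPM (82.9 to 134) in room air against 490 CPM (453 to 528) in hyperoxia, a ratio of 4.61 (3.60 to 5.98). Only 2 of 65 and 13 of 138 cells held at least 10 UMIs, and they held 58.6% and 92.5% of the Lcn2 of AT1 cells. Sftpc reached 4673 UMIs in one of those cells in room air and 8781 in one of hyperoxia, against medians of 4 and 7 over all AT1 cells. The part of AT2 RNA in this level was not tested.

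Stromal Lcn2 lay at 6.96 CPM (5.52 to 8.66) in room air against 59.0 CPM (56.1 to 61.9) in hyperoxia, a ratio of 8.48 (6.77 to 10.7). In hyperoxia 1509 of 1639 stromal UMIs lay in 1 cluster, led by Inmt, Scube2 and Tcf21, with 2.69 CPM in 172 cells of room air and 129 CPM in 986 cells of hyperoxia. There 14 cells of hyperoxia held at least 10 Lcn2 UMIs and together held 88.7% of them, and 1 cell alone held 587 of 1509. A cluster led by Cox4i2, Higd1b and Ndufa4l2 stood the other way, at 37.0 CPM (27.8 to 48.2) in room air, where it held 54 of 80 stromal UMIs, against 13.2 CPM (8.80 to 19.1) in hyperoxia. Over all stromal clusters but the Inmt-led one, 3 cells of room air held 45 of 72 Lcn2 UMIs. Sftpc reached 4647 UMIs in one of those 3 cells, against a median of 2 over these clusters. The part of AT2 RNA in this level was not tested.

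All 14 of those cells also held at least 10 UMIs of Saa3, an acute phase protein. Saa3 reached 10 UMIs in 91 of the 986 cells and lay at 1225 CPM in hyperoxia and 29.0 CPM in room air. The cell with 587 Lcn2 UMIs held 1989 of Saa3. Where Saa3 was under 10 UMIs, Lcn2 lay at 8.86 CPM, below the 13.5 CPM of B cells. Sftpc was at most 8 UMIs in the 14 cells and S100a8 at 2 UMIs in all.

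Among the 13 cell types compared, the order of Lcn2 levels was neutrophils, AT2 and AT1. In hyperoxia classical monocytes at 68.3 CPM (54.5 to 84.6) and stromal cells at 59.0 CPM (56.1 to 61.9) followed, and their intervals overlapped. Airway epithelial-like cells were too few for this order and are given below. In room air all types below AT1 lay between 1.25 and 13.4 CPM. ECs lay at 6.81 CPM in room air against 5.46 CPM in hyperoxia, and in room air 29 of their 53 UMIs were in 1 barcode, with 4759 UMIs of Sftpc.

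In the cell types compared, Ngp, Camp and Ltf were scarce outside neutrophils. Over the 12 other types, Ngp was at most at 4.13 CPM in room air against 7.50 CPM in hyperoxia, Camp at 4.40 and 5.63 CPM, and Ltf at 2.51 and 3.75 CPM. For Retnlg 1 classical monocyte of hyperoxia held 54 of the 56 UMIs of its type, and for Stfa1 1 alveolar macrophage of room air held 46 of 49. In classical monocytes Stfa1 lay at 22.3 and 43.1 CPM, and without the top cell of each library at 14.5 and 26.2 CPM, against 5.29 and 1.96 CPM in B cells treated the same way. Elane was counted in classical monocytes (2 and 3 UMIs), ECs (1 in hyperoxia) and stromal cells (4 in hyperoxia) and in none of the other 10 types.

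Related genes give the context in neutrophils. Of 13 other specific granule genes tested, 0 were past 2-fold higher in hyperoxia and 1 lower, Olfm4, an olfactomedin, at 85.8 CPM (36 UMIs) in room air against 22.1 CPM (29 UMIs) in hyperoxia. The list had a median log2 ratio of 0.39, beside −0.07 over all genes tested. Wfdc21 lay at 1752 and 1508 CPM (log2 ratio −0.22), and Cyba, a subunit of the NADPH oxidase, at 1604 and 1415 CPM (log2 ratio −0.18). Of the azurophil list 2 genes could be tested and 0 were past 2-fold, with Serpinb1a, an inhibitor of neutrophil proteases, at 124 and 119 CPM and Ctsc, which activates them, at 21.5 and 14.5 CPM, and a median log2 ratio of −0.31.

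None of 7 gelatinase granule and secretory vesicle genes was past 2-fold, with Anxa1 at 2026 CPM in room air against 1887 CPM in hyperoxia and Mmp9 at 1468 and 1702 CPM, and their median log2 ratio was 0.15. Among 9 genes of the stefin A and resistin-like family, 1 was higher, the stefin copy BC117090, with 3 UMIs in room air against 75 in hyperoxia. The list had a median log2 ratio of −0.12. None of 4 genes of granulopoiesis was past 2-fold, with Cebpb at 3287 and 4103 CPM and Csf3r at 1518 and 1292 CPM, and a median log2 ratio of −0.13.

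Among 7 other S100 genes 3 were lower in hyperoxia and 0 higher, with a median log2 ratio of −0.53. S100a11 (5435 and 5269 CPM) and S100a6 (4193 and 3410 CPM), the highest of them, were not past 2-fold. The 3 were scarce: S100a10 lay at 54.8 and 25.9 CPM, S100a16 at 54.8 and 13.7 CPM, and S100a4 at 14.3 and 6.85 CPM. In all neutrophils S100a10 had 23 and 34 UMIs, S100a16 23 and 18, and S100a4 6 and 9. Without granule-rich cells fewer were left, and the log2 ratios were 1.71, −0.29 and 1.30. These ratios rest on few UMIs in room air, so that no direction is read from them.

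Of 5 receptors of member proteins tested, 1 was past 2-fold, Cd36, at 95.3 CPM in room air against 35.0 CPM in hyperoxia, and its log2 ratio went from −1.45 to 0.54 without granule-rich cells. Fpr2, a formyl peptide receptor that binds cathelicidin, lay at 186 and 260 CPM, a log2 ratio of 0.48. The median log2 ratio of the 5 was −0.44.

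Over the 26 groups of cell type and library, which share libraries, the genes outside all lists whose log2(CPM + 1) was most like that of the S100 pair were Nlrp12 (Pearson r 0.961), Slfn4 (0.948), 9830107B12Rik (0.931), Gad1-ps (0.924) and Fosl1 (0.921), among 13774 genes. For the sum of Ngp, Camp, Ltf and Lcn2 they were Lrg1 (0.907), 9530077C05Rik (0.886), Ptgs2os2 (0.882), Ccdc189 (0.870) and Ccno (0.856). For Elane and Mpo, with 10 and 34 UMIs in those groups, they were Mnda (0.875), Ptpro (0.827), Slamf8 (0.822), Aif1 (0.802) and Ppfia4 (0.783), which were at most at 2.38 CPM in neutrophils. Among the members, r with the S100 pair was 0.956 for Stfa1, 0.918 for Retnlg and 0.566 for Lcn2.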

How the data were processed

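Single-cell UMI counts of 1 library of room air lungs and 1 of hyperoxia lungs were analysed. The deposited counts are raw UMIs of each gene in each barcode, made by the authors with Cell Ranger (mm10) and not normalized; the methods name a later version than the 2.1.1 of the submitters' processing notes, and the matrix headers name software 3.1.0. A minimum of 500 genes and a limit of 20% mitochondrial UMIs left 3809 barcodes in room air and 11711 in hyperoxia. Doublets were simulated and ranked over 20 neighbours, and the expected share (0.8% per 1000 barcodes) was removed, 129 and 1239 barcodes, leaving cells with a median of 8050.5 and 7218.5 UMIs. The neighbourhood was narrowed after a wide one had been seen to remove most granule-rich cells. Counts scaled to 10000 per cell (2000 variable genes, 30 components) were clustered by Leiden at resolution 1 (leidenalg 0.10.2, scikit-learn 1.9.0, Python 3.11.15), without the members and related lists. Clusters took the name with the highest score, the share of its markers that were raised times the mean of their largest log2 differences. The rule was amended after the clusters had been seen, and 4 of 34 stayed unnamed. Cell types with at least 50 cells in each library were used. CPM have exact Poisson, shares exact Clopper-Pearson and ratios exact conditional 95% intervals, and the intervals were tested on simulated data. No test was possible without replicates, and genes with a mean of at least 10 CPM were called at 2-fold. Named genes were the members, the 2 genes of each related list with the largest CPM in neutrophils and each gene of it past 2-fold, and the 5 genes most like each sum. Genes contrasting granule-rich with other neutrophils, Saa3 and the genes of single barcodes were chosen after their values were seen. The members and lists were chosen with earlier results of these data known.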

Additional observations from a re-analysis of the deposited data

Results flagged for a closer look

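Some members differed in direction between neutrophils and another cell type, and these differences were not tested. S100a8 was 0.774 times its room air level in neutrophils of hyperoxia, but 5.68 times (2.08 to 21.7) in AT1 cells and 1.30 times (1.18 to 1.43) in classical monocytes. S100a9 was 0.958 times its room air level in neutrophils, or 1.01 times (0.992 to 1.02) without the top cell of each library, so that no direction is read there. S100a9 was 3.27 times (1.37 to 9.47) its room air level in NK cells, 4.11 times (2.13 to 8.88) in AT1 cells and 4.75 times (1.91 to 15.2) in interstitial macrophages. In room air these rested on 4 S100a8 UMIs in AT1 cells and on 6, 10 and 5 S100a9 UMIs in NK cells, AT1 cells and interstitial macrophages, and 1 interstitial macrophage of hyperoxia held 53.7% of the S100a9 of its type. Stfa1 was 0.647 times its room air level in neutrophils and 1.93 times (1.18 to 3.25) in classical monocytes, where 1 cell held 36.0% of its UMIs in room air and 1 held 39.6% in hyperoxia, and where the ratio without both was 1.81 (0.962 to 3.52).

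Data outside the comparisons also held a signal: 231 of the 256 Mpo UMIs of hyperoxia were in barcodes taken out as doublets, against 1 of 16 in room air.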

How the results depend on the processing

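With 1 library per group, no replicate could be left out. No paired analysis was possible because each group has 1 library and no test was made. The log2 ratio of all members in neutrophils (−0.10) was −0.13 without doublet removal, 0.0103 with each library clustered on its own, −0.14 with members in the clustering, 0.82 with neutrophils taken cell by cell by 3 markers, −0.0852 as a mean of single-cell CPM, −0.13 and −0.12 over UMIs without members and lists or without mitochondrial, ribosomal protein and haemoglobin genes, and −0.0305 centred on the median gene. Of the alternatives chosen after seeing the data, a wide doublet neighbourhood gave −0.57, leaving out granule-rich cells −0.23, and leaving out those with endothelial UMIs −0.0527. The count of members past 2-fold (0) was 1 (Ltf) with libraries clustered apart, 4 cell by cell (Ltf, Camp, Lcn2 and Retnlg, higher), 4 with the wide neighbourhood (Ngp, Ltf, Camp and Lcn2, lower) and 3 without granule-rich cells (Ngp, Camp and Lcn2, higher), and 0 in the 13 other settings. The B cell log2 ratio of the S100 pair (0.32) was 2.48 without doublet removal and −0.61 with the wide neighbourhood. The difference in the share of neutrophils (1.70 percentage points) was −2.27 cell by cell, a choice that took 385 and 858 cells. The part of member UMIs in neutrophils was 85.2% in room air, and 83.4% without doublet removal, 85.5% with double removal, 69.9% with libraries clustered apart, 92.0% with members in the clustering, 81.0% with the wide neighbourhood and 93.7% cell by cell. In hyperoxia it was 85.9%, and 86.6% from 200 genes per barcode, 75.5% without doublet removal, 88.5% with double removal, 77.0% with the wide neighbourhood and 87.4% cell by cell. The S100a8 part in classical monocytes was 91.8% (double removal) and 91.1% (cell by cell) in hyperoxia and 76.6% (cell by cell) in room air. With libraries clustered apart no hyperoxia cluster took that name, which left no value. Ngp was counted in 21.1% of hyperoxia neutrophils thinned to 2000 UMIs, and Lcn2 in 20.6% of room air neutrophils thinned to 1000 and in 35.2% and 51.1% of those of hyperoxia thinned to 1000 and 2000. Thinned shares cover only neutrophils with at least as many UMIs as the depth, so they rest on fewer cells than the unthinned shares. The cause of the other shifts was not tested. Retnlg was higher in hyperoxia in all 15 alternatives (log2 ratio 0.61 to 1.75); S100a8 was lower in 14 and Stfa1 in 14 of 15, the exception for both being neutrophils taken cell by cell. Depth limits what a 0 means, as with the 7.15 CPM that 0 Mpo UMIs allow in room air neutrophils.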

Other observations

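Airway epithelial-like cells, with 31 cells in room air and 103 in hyperoxia, were too few in room air for the comparisons above, and their values are given without one. Ltf, which airway glands also secrete, lay at 49.7 CPM (40.0 to 61.1) in them in room air against 25.1 CPM (18.5 to 33.4) in hyperoxia, and was counted in 22.6% and 22.3% of the cells. In room air 1 cell held 90.1% of those Ltf UMIs. Lcn2 lay at 128 CPM (113 to 146) and 409.5 CPM (381 to 440), was counted in 35.5% and 61.2% of the cells, and reached at least 10 UMIs in 5 and 23 of them. The S100 pair lay at 8.20 CPM in room air, and of its 266 CPM in hyperoxia 90.1% was in 1 cell.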
